A study of Mus musculus with 6 samples.

Results

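The Notch genes described here are 3 receptors (Notch1, Notch2 and Notch3), 3 ligands (Jag1, Jag2 and Dll1) and 4 genes of the Hes and Hey family (Hes1, Hes6, Hey1 and Heyl). They were taken by gene symbol from a table of raw counts of the mouse myoblast line C2C12. All 10 were found among the 43074 symbols of the table, and all 10 were among the 17433 genes that passed the filter on low counts and were tested. Neither their choice nor the filter dropped a member.

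Notch receptors are single-pass membrane proteins that are activated by Jagged or Delta ligands on a neighbouring cell. Ligand binding lets ADAM proteases and then gamma-secretase cut the receptor, and the freed intracellular domain enters the nucleus, binds the DNA-binding protein Rbpj and Mastermind coactivators, and turns on genes such as Hes1, Hey1 and Heyl, which encode basic helix-loop-helix repressors. In skeletal muscle the pathway is known for keeping satellite cells and myoblasts undifferentiated. Hes6 differs from the other Hes genes in that it is not known as a Notch target and acts against Hes1.

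C2C12 is an established line of wild-type mouse muscle precursor cells that fuse into myotubes when the serum is changed. RNA sequencing compared 3 groups of 2 libraries each. Day 0 cells were not treated, and the line was grown in DMEM with 10% fetal bovine serum. Day 4 cells had been kept for 4 days in DMEM with 5% horse serum and either DMSO, the vehicle, or 1 mM 4-phenylbutyric acid (4-PBA), a chemical chaperone that also inhibits histone deacetylases. Day 0 therefore differs from both day 4 groups in time, serum and added agent at once, and these cannot be told apart. The labels do not say whether the 2 libraries of a group came from separate cultures, so the p-values measure only the spread between these libraries, which may be technical.

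Total counts ranged from 47908926 to 74697397 per library, and all libraries carried batch number 1. The labelled cell type was borne out by its markers: the summed level of 6 myoblast genes, Myod1 and Myf5 among them, was 1829 to 1858 CPM at day 0 (a gene's counts relative to the library's total, TMM-scaled, from the cpm function of edgeR). It was 3717 to 3749 CPM with DMSO and 3573 to 3577 CPM with 4-PBA. Most of this sum came from Des, Chrna1 and Cdh15, which were higher at day 4, while Myf5 reached at most 50.4 CPM at day 0 and 22.6 to 24.5 CPM at day 4, and Myod1 stood at 95.8 to 116 CPM in all libraries. Over 8 myotube genes, Myog, Mymk and Myh3 among them, the sum was 260 to 265 CPM at day 0, 5843 to 6188 CPM with DMSO and 5423 to 5524 CPM with 4-PBA. Endothelial markers summed to at most 2.69 CPM, leukocyte markers to at most 6.15 CPM, epithelial markers to at most 5.74 CPM and neural or glial markers to at most 4.26 CPM in any library, and Sox10 had no count. Adipocyte markers reached at most 12.2 CPM, nearly all from Cebpa, and osteoblast markers at most 82.7 CPM, nearly all from Runx2. In bulk RNA, fewer cells of a type and less RNA per cell cannot be told apart.

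Between day 0 and day 4 with DMSO, 9 of the 10 Notch genes differed at an adjusted p under 0.05 (edgeR quasi-likelihood test, Benjamini-Hochberg adjustment over all tested genes). Notch2, Notch3, Jag1, Dll1, Hes1, Hes6, Hey1 and Heyl rose, Jag2 fell, and Notch1 did not pass the test. The background of this comparison is high: 66.3% of all tested genes were called, 33.8% as higher and 32.6% as lower. The share of 8 of 10 called higher lies above that background, and no test was made of it. The members were chosen with earlier results of these data known. An excess of members over all genes, here or in the other comparisons, may therefore come from that choice. Of the members, 4 rose by at least 2-fold (Notch3, Dll1, Hes6 and Heyl), while 13.2% of all genes did so. The median log2 fold change of the 10 members was 0.61, against 0.023 over all tested genes. In 9 of 10 members the day 0 and DMSO libraries did not overlap, as was the case for 81.9% of all genes. The summed level of the 8 myotube markers moved with both day 4 groups, from at most 265 CPM at day 0 to at least 5423 CPM, and its part in the changes of the Notch genes was not tested.

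The windows before the start sites of the strongly rising members are shown because these 4 genes rose together at day 4. RefSeq promoter sequences (build GRCm38.p6) matched 7 of the 10 members, with 9 windows of 250 bases before an annotated start. No entry was matched for Hes1, Hey1 and Heyl. The motifs searched were: TGGGAA, the core of the Rbpj site, on both strands; CANNTG, the E-box bound by myogenic factors such as MyoD, which reads the same on both strands; and CACNAG, the N-box bound by Hes proteins, on both strands. The capitals below mark matches to any of these motifs, which may overlap one another, and each window is written 5′ to 3′ on the minus strand, ending at the base before the start.
Notch3, chr17:32166891-32167140: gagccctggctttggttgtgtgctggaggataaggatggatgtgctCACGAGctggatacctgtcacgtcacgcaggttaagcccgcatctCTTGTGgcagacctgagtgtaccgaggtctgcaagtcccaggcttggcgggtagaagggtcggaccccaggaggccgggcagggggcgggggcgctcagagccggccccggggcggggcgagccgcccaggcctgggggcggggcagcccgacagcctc
Dll1, the upstream start, chr17:15376933-15377182: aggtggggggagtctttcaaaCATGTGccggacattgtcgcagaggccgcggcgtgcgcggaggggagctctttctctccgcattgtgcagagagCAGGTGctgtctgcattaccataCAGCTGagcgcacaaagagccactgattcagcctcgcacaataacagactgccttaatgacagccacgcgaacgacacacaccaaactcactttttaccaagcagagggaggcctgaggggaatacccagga
Hes6, chr1:91413223-91413472: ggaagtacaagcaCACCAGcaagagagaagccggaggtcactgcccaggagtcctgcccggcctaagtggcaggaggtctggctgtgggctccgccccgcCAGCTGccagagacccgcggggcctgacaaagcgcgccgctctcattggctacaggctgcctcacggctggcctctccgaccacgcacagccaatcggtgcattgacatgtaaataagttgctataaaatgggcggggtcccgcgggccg
The Notch3 window held 2 N-box letters, beginning 204 and 159 bases before the start. In the Dll1 window there were 3 E-boxes, at 229, 155 and 132 bases before the start. That start lies 956 bases from the principal GENCODE start. Hes6 had an N-box at 237 bases and an E-box at 150 bases. Dll1 and Hes6 each have a second window that is not printed. That of the other Dll1 start, nearer at 153 bases from the principal GENCODE start, overlaps an exon there and held 1 E-box. That of the upstream Hes6 start, 816 bases from the principal start, held 3 E-boxes. Among the 9 windows of the members, TGGGAA occurred in 0, CANNTG in 5 and CACNAG in 4. Over 32841 promoter windows of the same length, TGGGAA occurred in 21.6%, CANNTG in 66.2% and CACNAG in 36.7%. These matches describe letters in the windows only.

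The receptors moved apart: Notch3 rose more than 3-fold, Notch2 rose by 57.4%, and Notch1 stayed within its spread. Notch3, the receptor best known from smooth muscle and from the satellite cell lineage, stood at 98.7 and 99.7 CPM at day 0, at 344 and 323 CPM in the DMSO libraries and at 341 and 341 CPM in those with 4-PBA. All 4 day 4 libraries lay far above both day 0 libraries. Its log2 fold change with DMSO was 1.75 ± 0.034 (SE; 3.36-fold; edgeR adjusted p = 3.09e-31), and with 4-PBA it was 1.78 ± 0.034 (3.44-fold; edgeR adjusted p = 2.02e-31).

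Notch2 was the receptor with the most counts, at 226 and 230 CPM at day 0, 368 and 351 CPM in the DMSO libraries and 348 and 349 CPM in those with 4-PBA. Its groups at day 0 and day 4 did not overlap, and it rose by 0.65 ± 0.031 on the log2 scale with DMSO (edgeR adjusted p = 9.72e-20) and by 0.61 ± 0.031 with 4-PBA (edgeR adjusted p = 8.24e-19). Notch1, the receptor most often studied in satellite cells, read 91.4 and 89.7 CPM at day 0, 90.7 and 86.7 CPM in the DMSO libraries and 89.3 and 90.8 CPM in those with 4-PBA. The 3 groups overlapped. Its log2 difference from day 0 was -0.030 with DMSO (95% interval -0.11 to 0.049; edgeR adjusted p = 0.514) and -0.0073 with 4-PBA (95% interval -0.087 to 0.072; edgeR adjusted p = 0.884), so a change of more than about 0.11 in either direction lay outside both intervals.

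In the GENCODE M21 annotation, exons of other genes overlap those of 4 members, and whether strand was used in counting is not stated, which leaves the values of these members uncertain. The overlapping genes had few counts next to the members: 0610009E02Rik, opposite Notch1, had 64 to 143 counts in a library, where Notch1 had 4443 to 6428. Gm13568, also opposite Notch1, had at most 2 counts. Gm42820, on the strand of Notch2, had 34 to 109 counts, and Gm17276, opposite Notch3, had 7 to 35 counts. The fourth, A930024N18Rik, shares 867 bases with Dll1 on the opposite strand and has no row in the table, so reads from it, if any, cannot be told apart from those of Dll1.

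**Figure D1:**
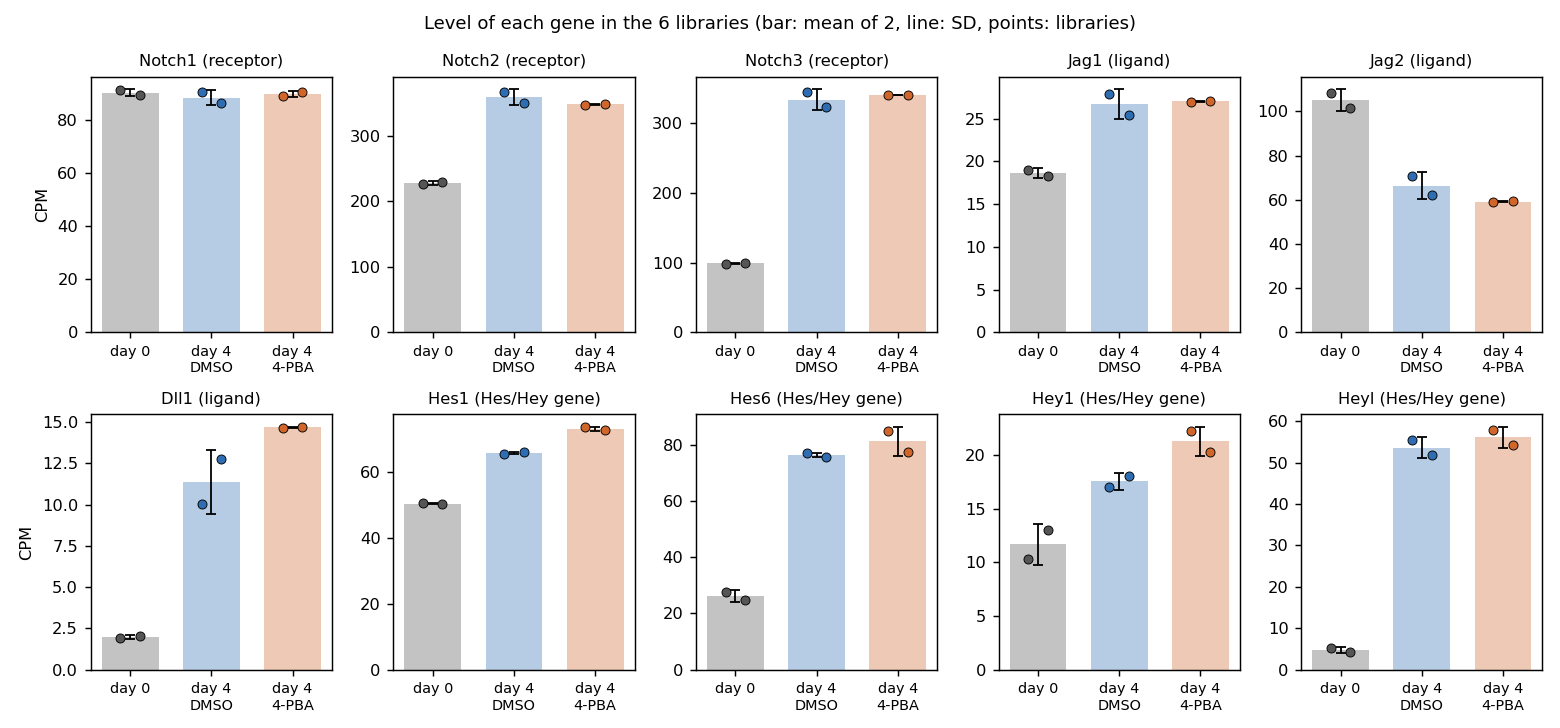
Level of each of the 10 Notch genes in CPM (vertical axes, starting at 0) in the 6 libraries; bars are means of 2 libraries, lines are SD and points are libraries. Heyl rises from 5.25 and 4.29 CPM at day 0 to 51.8 to 57.9 CPM at day 4, Jag2 falls, and the points of Notch1 overlap.

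Ligands took opposite directions, with Dll1 and Jag1 higher and Jag2 lower at day 4. Dll1, a Delta ligand expressed by differentiating myogenic cells, was the scarcest member at day 0, with 92 and 145 counts, or 1.89 and 2.07 CPM. With DMSO it had 632 and 945 counts, or 10.0 and 12.7 CPM, and with 4-PBA 909 and 913 counts, or 14.6 and 14.7 CPM. Day 0 and day 4 did not overlap, and the DMSO libraries differed from each other more than those of the other groups did. The log2 fold change was 2.52 ± 0.13 with DMSO (5.73-fold; edgeR adjusted p = 3.17e-18) and 2.88 ± 0.13 with 4-PBA (7.36-fold; edgeR adjusted p = 5.77e-20).

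Jag2 was the ligand with the most counts in every library. It fell from 109 and 101 CPM at day 0 to 70.7 and 62.3 CPM in the DMSO libraries and to 59.1 and 59.3 CPM in those with 4-PBA, with no overlap between day 0 and day 4. On the log2 scale it fell by 0.66 with DMSO (SE 0.050; edgeR adjusted p = 1.26e-11) and by 0.83 with 4-PBA (SE 0.050; edgeR adjusted p = 1.94e-13). Jag1, a second Jagged ligand, had 19.0 and 18.2 CPM at day 0, 27.9 and 25.4 CPM in the DMSO libraries and 27.0 and 27.1 CPM in those with 4-PBA. Its rise was 0.52 ± 0.067 with DMSO (edgeR adjusted p = 2.27e-08) and 0.54 ± 0.068 with 4-PBA (edgeR adjusted p = 1.13e-08).

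All 4 Hes and Hey members rose, by very different amounts. Heyl, a Hey repressor and Notch target of satellite cells, had the largest change of the 10 members: 255 and 301 counts (5.25 and 4.29 CPM) at day 0 became 3501 and 3843 counts (55.5 and 51.8 CPM) with DMSO and 3597 and 3374 counts (57.9 and 54.3 CPM) with 4-PBA. Each day 4 library lay about an order of magnitude above day 0. The log2 fold change was 3.51 ± 0.075 with DMSO (11.4-fold; edgeR adjusted p = 1.15e-28), which ranked 473 from the top among 17433 genes, and 3.58 ± 0.075 with 4-PBA (11.9-fold; edgeR adjusted p = 7.68e-29).

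Hes6, the antagonist of Hes1, went from 27.6 and 24.8 CPM at day 0 to 76.9 and 75.7 CPM in the DMSO libraries and 84.8 and 77.4 CPM in those with 4-PBA. It rose by 1.55 ± 0.053 with DMSO (2.92-fold; edgeR adjusted p = 4.73e-22) and by 1.64 ± 0.053 with 4-PBA (3.11-fold; edgeR adjusted p = 1.20e-22). Hes1, the most widely used readout of Notch activity, was 50.6 and 50.4 CPM at day 0, 65.6 and 66.0 CPM in the DMSO libraries and 73.7 and 72.8 CPM in those with 4-PBA. The 3 pairs of libraries stood in 3 separate steps. Its change from day 0 was 0.38 ± 0.044 with DMSO (30.5% higher; edgeR adjusted p = 1.35e-09) and 0.54 ± 0.044 with 4-PBA (45.1% higher; edgeR adjusted p = 3.83e-13).

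Hey1 showed, relative to its level, the widest spread of this family at day 0, with 10.3 and 13.0 CPM. It had 17.0 and 18.1 CPM in the DMSO libraries and 22.2 and 20.3 CPM in those with 4-PBA, again without overlap between any 2 groups. The rise was 0.57 ± 0.089 with DMSO (edgeR adjusted p = 1.61e-06) and 0.85 ± 0.088 with 4-PBA (edgeR adjusted p = 9.82e-10). Without the first day 0 library the DMSO value was 0.43, and without the second it was 0.77, and Hey1 passed the test in both cases.

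In the comparison of 4-PBA with day 0, which shares its day 0 libraries with the DMSO comparison, 9 of 10 members were called, 8 of them higher and 1 lower. Over all tested genes 65.6% were called, 33.2% higher and 32.4% lower. The same 4 genes, Notch3, Dll1, Hes6 and Heyl, rose by at least 2-fold, as did 12.8% of all genes. The median log2 fold change of the members was 0.73, against 0.018 over all tested genes. Day 0 and 4-PBA libraries did not overlap in 9 of 10 members and in 81.8% of all genes.

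**Figure D2:**
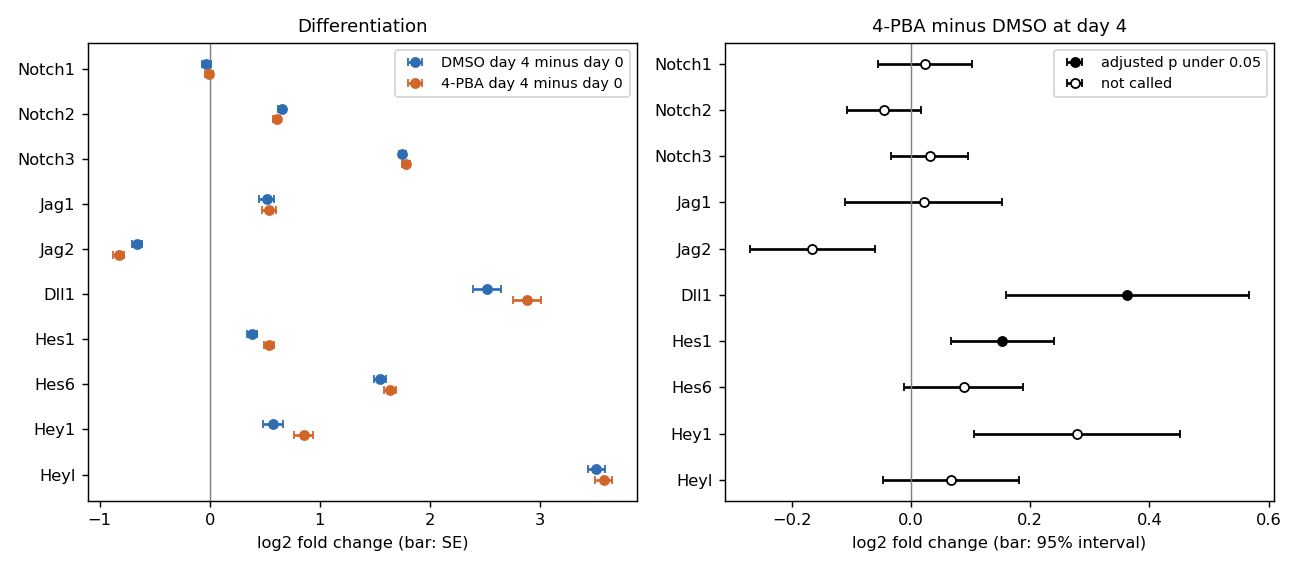
Log2 fold changes of the 10 Notch genes (horizontal axes); left, each day 4 group minus day 0 with SE bars; right, 4-PBA minus DMSO at day 4 with 95% intervals, filled where the adjusted p is under 0.05. On the left the values run from -0.83 for Jag2 to 3.58 for Heyl, and on the right the filled points are Dll1 and Hes1.

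The levels of different genes were compared per length, as RPKM, the CPM divided by the length of the gene's merged exons in kilobases. At day 0 the order was Hes1 at 24.8 RPKM, Notch2 at 21.2, Jag2 at 15.1, Hes6 at 14.5, Notch3 at 12.3, Notch1 at 6.36, Hey1 at 3.58, Jag1 at 3.20, Heyl at 0.932 and Dll1 at 0.469 RPKM. Jag2 and Hes6 overlapped between libraries, as did Hey1 and Jag1, and the other neighbours did not. With DMSO the order became Hes6 at 42.2 RPKM, Notch3 at 41.2, Notch2 at 33.3, Hes1 at 32.3, Heyl at 10.5, Jag2 at 9.54, Notch1 at 6.23, Hey1 at 5.37, Jag1 at 4.58 and Dll1 at 2.70 RPKM. Here Hes6 and Notch3 overlapped, and so did Heyl and Jag2. With 4-PBA the order was Hes6 at 44.9 RPKM, Notch3 at 42.1, Hes1 at 36.0, Notch2 at 32.3, Heyl at 11.0, Jag2 at 8.50, Hey1 at 6.51, Notch1 at 6.33, Jag1 at 4.64 and Dll1 at 3.48 RPKM, with Hey1 and Notch1 overlapping. With the length of the longest transcript in place of merged exons, Hes1 stood second at day 4 in both groups, Jag2 passed Heyl with DMSO, and Notch1 passed Hey1 with 4-PBA.

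Per length, the makeup of each class shifted between day 0 and day 4. Notch2 made up 53.2% of the summed receptor level at day 0 and Notch3 30.8%. With DMSO Notch3 held 51.0% and Notch2 41.3%, while Notch1 went from 16.0% to 7.71%. The summed receptor level was 39.6 and 40.0 RPKM at day 0, 83.0 and 78.6 RPKM with DMSO, and 80.7 and 80.8 RPKM with 4-PBA. Among ligands, Jag2 held 80.4% at day 0, 56.7% with DMSO and 51.2% with 4-PBA, and Dll1 held 2.51%, 16.1% and 20.9%. The summed ligand level was 19.3 and 18.2 RPKM at day 0, 17.3 and 16.3 RPKM with DMSO, and 16.6 and 16.6 RPKM with 4-PBA. The summed level of receptors at day 4 was therefore 2.03 times that at day 0, while that of ligands was 0.897 times with DMSO.

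Among the 4 Hes and Hey genes, Hes1 gave 56.6% of the summed level at day 0 and 35.8% with DMSO, and Hes6 gave 33.1% and 46.7%. Heyl went from 2.13% to 11.6%. Their sum was 44.3 and 43.2 RPKM at day 0, 90.8 and 89.9 RPKM with DMSO, and 101.2 and 95.4 RPKM with 4-PBA.

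**Figure D3:**
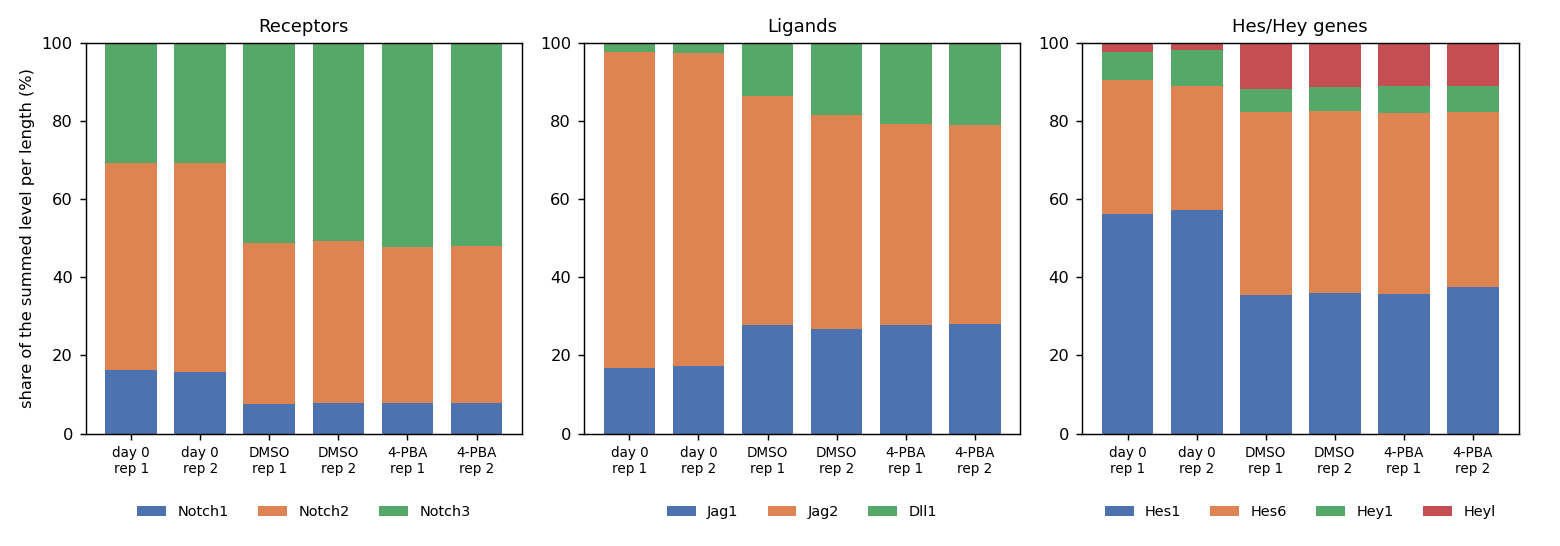
Share of each gene in the summed RPKM of its class (vertical axes, percent) in each of the 6 libraries. Notch3 takes 30.8% of the receptor sum at day 0 and 50.8% to 52.2% at day 4, and Dll1 goes from 2.33% and 2.69% of the ligand sum to 13.7% and 18.5% with DMSO and 20.9% with 4-PBA.

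Comparing 4-PBA with DMSO at day 4 asks whether the compound altered these genes in differentiating cells, and it is also the test of the difference between both day 4 changes, since day 0 cancels. Dll1 and Hes1 were higher with 4-PBA, by 28.6% and 11.2%, and 0 members were called lower by the main edgeR fit, DESeq2 or limma-voom. With a replicate block, or with no filter on low counts, edgeR called 1 member lower, Jag2. The 3 receptors, Jag1, Hes6 and Heyl did not pass the test, and Jag2 and Hey1 missed it narrowly. The 2 of 10 called are set beside 4.9% of all tested genes, 2.13% called higher and 2.78% lower. At an unadjusted p under 0.05, 4 of the 10 members passed: Dll1, Hes1 and Hey1 higher and Jag2 lower. The median log2 difference was 0.049 over the members and 0.0021 over all genes. The summed level of the 8 myotube markers was lower with 4-PBA in both libraries than in either DMSO library (5423 to 5524 against 5843 to 6188 CPM), and its part in these differences was not tested. Most of that gap lay in Ttn, with 2614 and 2691 CPM under DMSO and 2176 and 2207 CPM under 4-PBA. Not every marker was lower. Mymk, Mymx, Ckm and Tnnt3 were also lower in both 4-PBA libraries, as was Actn2 by a small margin (22.9 and 23.6 against 22.8 and 20.4 CPM). Myog (277 and 297 against 289 and 287 CPM) and Myh3 (1950 and 2085 against 2014 and 2072 CPM) overlapped between the groups.

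Dll1 stood at 14.6 and 14.7 CPM with 4-PBA, above both DMSO libraries at 10.0 and 12.7 CPM. The log2 difference was 0.36 (95% interval 0.16 to 0.57; edgeR adjusted p = 0.0269). This call did not hold without the first DMSO library, where the difference was 0.20, against 0.55 without the second. Nor did it hold under the DESeq2 Wald test or without either 4-PBA library. With the DESeq2 Wald test the adjusted p was 0.0793, and without 1 or the other 4-PBA library the edgeR adjusted p was 0.163 and 0.170. Over the 14 alternatives Dll1 was called in 10.

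Hes1 had 73.7 and 72.8 CPM with 4-PBA against 65.6 and 66.0 CPM with DMSO, a gap wider than the spread within either pair. Its log2 difference was 0.15 (95% interval 0.067 to 0.24; edgeR adjusted p = 0.0276). The value stayed between 0.15 and 0.16 over the 14 alternatives and was called in 12 of them. Leaving out the first or the second 4-PBA library gave an edgeR adjusted p of 0.227 and 0.155.

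Hey1 lay higher with 4-PBA in both libraries, with a log2 difference of 0.28 (95% interval 0.11 to 0.45; edgeR adjusted p = 0.0513), which missed the threshold. It passed in 9 of 14 alternatives, among them limma-voom (adjusted p = 0.0269). For Jag2 the difference was -0.17 (95% interval -0.27 to -0.061; edgeR adjusted p = 0.0594). Without the second DMSO library it was -0.25 (edgeR adjusted p = 4.24e-05), and without the first it was -0.074 (edgeR adjusted p = 0.478). Both 4-PBA libraries of Jag2, at 59.1 and 59.3 CPM, were nonetheless below both DMSO libraries.

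The receptors gave narrow intervals around 0. The log2 difference between 4-PBA and DMSO was 0.023 for Notch1 (95% interval -0.056 to 0.10), -0.045 for Notch2 (-0.11 to 0.017) and 0.031 for Notch3 (-0.034 to 0.096). Jag1 had 0.021 (-0.11 to 0.15), Hes6 0.089 (-0.011 to 0.19) and Heyl 0.066 (-0.048 to 0.18). These intervals do not show that the groups are alike, and they leave out differences beyond 0.19 in either direction. The libraries of 4-PBA and DMSO did not overlap in 6 of the 10 members, Notch2, Jag2, Dll1, Hes1, Hes6 and Hey1, as in 45.5% of all genes.

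Beyond the members, a list of 82 other genes of the pathway was examined, of which 73 were tested. With DMSO 39 of the 73 rose and 16 fell, and with 4-PBA 40 rose and 18 fell relative to day 0. Over all tested genes 33.8% were higher and 32.6% lower with DMSO, and 33.2% and 32.4% with 4-PBA, and the counts by list in the following paragraphs are to be read against these shares. The median log2 fold change of the 73 genes was 0.28 in both comparisons, against 0.023 and 0.018 over all tested genes. Between 4-PBA and DMSO 3 were higher and 4 lower, beside 2.13% and 2.78% of all genes. The 9 that were not tested had at most 5 counts in any library. Among them were Hes5 and Helt, both with 0 counts in all 6 libraries, and Hey2 with at most 4 counts; 0 counts allow up to 3 in a library.

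Of the other receptors and ligands, 4 of 6 were tested, and Dll4 was called higher with DMSO and Notch4 higher with 4-PBA, both named after their values were seen. They were barely detected: Dll4 had 8 and 0 counts at day 0 and 27 and 16 with DMSO, and Notch4 had 8 and 5 counts at day 0 and 23 and 26 with 4-PBA. The DESeq2 Wald test called 0 genes of this list with DMSO, also at an unadjusted p under 0.05, so the Dll4 call is lost there. Of the other Hes and Hey relatives, 2 of 3 tested rose with DMSO, Bhlhe40 and Bhlhe41. The remaining gene, Hes7, is named after its values were seen. It had 14 and 12 counts at day 0 and 8 and 9 with DMSO, and was not called (edgeR adjusted p = 0.291). Bhlhe40, a repressor that responds to many stimuli, went from 99.5 and 101 CPM at day 0 to 356 and 354 CPM with DMSO, and was lower with 4-PBA at 308 and 300 CPM. Its log2 fold change was 1.83 ± 0.032 with DMSO (edgeR adjusted p = 1.93e-32) and -0.22 ± 0.030 for 4-PBA against DMSO (edgeR adjusted p = 1.02e-05). Bhlhe41, its close relative, rose by 0.84 ± 0.052 with DMSO (edgeR adjusted p = 4.24e-10).

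In the list of receptor maturation and glycosylation, 3 of 6 rose with DMSO and 2 fell. Lfng, a glycosyltransferase that alters which ligands a receptor answers to, rose by 0.94 ± 0.056 (edgeR adjusted p = 9.24e-17), and Furin, the protease that cleaves the receptor on its way to the surface, by 0.39 ± 0.035 (edgeR adjusted p = 4.77e-12). Of 9 genes of the ADAM and gamma-secretase list, 5 rose and 1 fell with DMSO. Psen2, a catalytic subunit of gamma-secretase, went from 4.28 and 4.53 CPM at day 0 to 10.8 and 10.7 CPM, a rise of 1.28 ± 0.11 (edgeR adjusted p = 6.70e-13). Aph1c, another subunit, rose by 1.14 ± 0.35 (edgeR adjusted p = 0.00445) at a level near 1 CPM. Relative to day 0, Adam10, the protease of the first ligand-induced cut, rose by 0.41 ± 0.033 with DMSO (edgeR adjusted p = 4.30e-13). With 4-PBA its rise was 0.46 ± 0.033 (edgeR adjusted p = 1.51e-14). Between 4-PBA and DMSO, edgeR called 0 of these 15 genes and DESeq2 0, limma-voom called 1 lower, and by edgeR 1 had an unadjusted p under 0.05.

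Of 18 tested genes of ligand and receptor ubiquitination and endocytosis, 11 rose and 3 fell with DMSO. Dtx4, a Deltex ubiquitin ligase, rose by 1.72 ± 0.045 (edgeR adjusted p = 1.88e-27). Relative to day 0, Neurl1a, a Neuralized ubiquitin ligase, rose by 1.24 ± 0.034 with DMSO (edgeR adjusted p = 7.23e-27). With 4-PBA its rise was 1.31 ± 0.034 (edgeR adjusted p = 1.76e-27). Neurl1b, a related ligase that acts on Delta ligands, moved the other way: it had 7.94 and 7.61 CPM at day 0, 2.39 and 2.01 CPM in the DMSO libraries and 3.53 and 4.49 CPM in those with 4-PBA. It fell with DMSO by 1.82 on the log2 scale (SE 0.15; edgeR adjusted p = 4.72e-13), and 4-PBA libraries lay above DMSO by 0.87 ± 0.16 (edgeR adjusted p = 4.62e-04), the only gene of this list called between them.

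In the nuclear complex, 4 of 9 genes rose and 2 fell with DMSO. Rbpj itself had 99.3 and 107 CPM at day 0, 105 and 101 CPM in the DMSO libraries and 91.3 and 95.5 CPM in those with 4-PBA. It did not pass the test with DMSO (edgeR adjusted p = 0.996), and with 4-PBA it was lower than with DMSO by a log2 difference of -0.14 ± 0.040 (edgeR adjusted p = 0.0299). The DESeq2 Wald test called 0 of the 9 genes of this list between 4-PBA and DMSO, so the Rbpj call is lost there, and limma-voom called 1. Maml2, a Mastermind coactivator, rose by 1.07 ± 0.087 with DMSO (edgeR adjusted p = 4.14e-13), and Kat2a, a histone acetyltransferase, fell by 1.01 (SE 0.047; edgeR adjusted p = 2.12e-19). Corepressors were divided, with 7 of 17 higher and 8 lower with DMSO. Cir1, an Rbpj corepressor, rose by 0.88 ± 0.055 (edgeR adjusted p = 3.71e-16), and Tle4, a Groucho corepressor, by 0.87 ± 0.16 (edgeR adjusted p = 1.27e-05). Tle2 was higher than at day 0 by 0.84 ± 0.049 with DMSO (edgeR adjusted p = 2.86e-17). With 4-PBA it was higher than at day 0 by 0.90 ± 0.049 (edgeR adjusted p = 5.94e-18). Between 4-PBA and DMSO Tle2 was not called (edgeR adjusted p = 0.650). Ncor1, a scaffold of histone deacetylase complexes, was lower with 4-PBA than with DMSO by a log2 difference of -0.11 ± 0.031 (edgeR adjusted p = 0.0305).

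Among 7 tested genes that have been reported as Notch targets in other settings, 6 rose with DMSO, and 0 were lower by edgeR, DESeq2 or limma-voom, nor at an unadjusted p under 0.05. With 4-PBA relative to day 0, 5 rose and 2 fell, Nrarp and Sox9 (1 lower by DESeq2), the latter by a log2 value of -0.13 (edgeR adjusted p = 0.00189). Col5a3 rose by 1.68 ± 0.032 (edgeR adjusted p = 2.08e-31) and Col5a1 by 1.36 ± 0.027 (edgeR adjusted p = 6.61e-31); both encode chains of type V collagen. Nrarp, a target that feeds back on the receptor's intracellular domain, is named after its values were seen: it had 1.19 and 1.32 CPM at day 0 and 0.887 and 0.903 CPM with DMSO and was not called (edgeR adjusted p = 0.124), but was called lower with 4-PBA relative to day 0, at 0.934 and 0.644 CPM (log2 fold change -0.68; edgeR adjusted p = 0.0399). The difference between 4-PBA and DMSO itself was -0.18 for Nrarp and did not pass (edgeR adjusted p = 0.841). Between 4-PBA and DMSO, Col6a2 was higher with 4-PBA by 0.15 ± 0.033 (edgeR adjusted p = 0.00508), as was Col6a1 by 0.12 (edgeR adjusted p = 0.0159), the latter named after its values were seen. Sox9 was lower with 4-PBA, at 112 and 106 CPM against 132 and 131 CPM with DMSO, a log2 difference of -0.27 ± 0.036 (edgeR adjusted p = 5.76e-06).

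**Figure D4:**
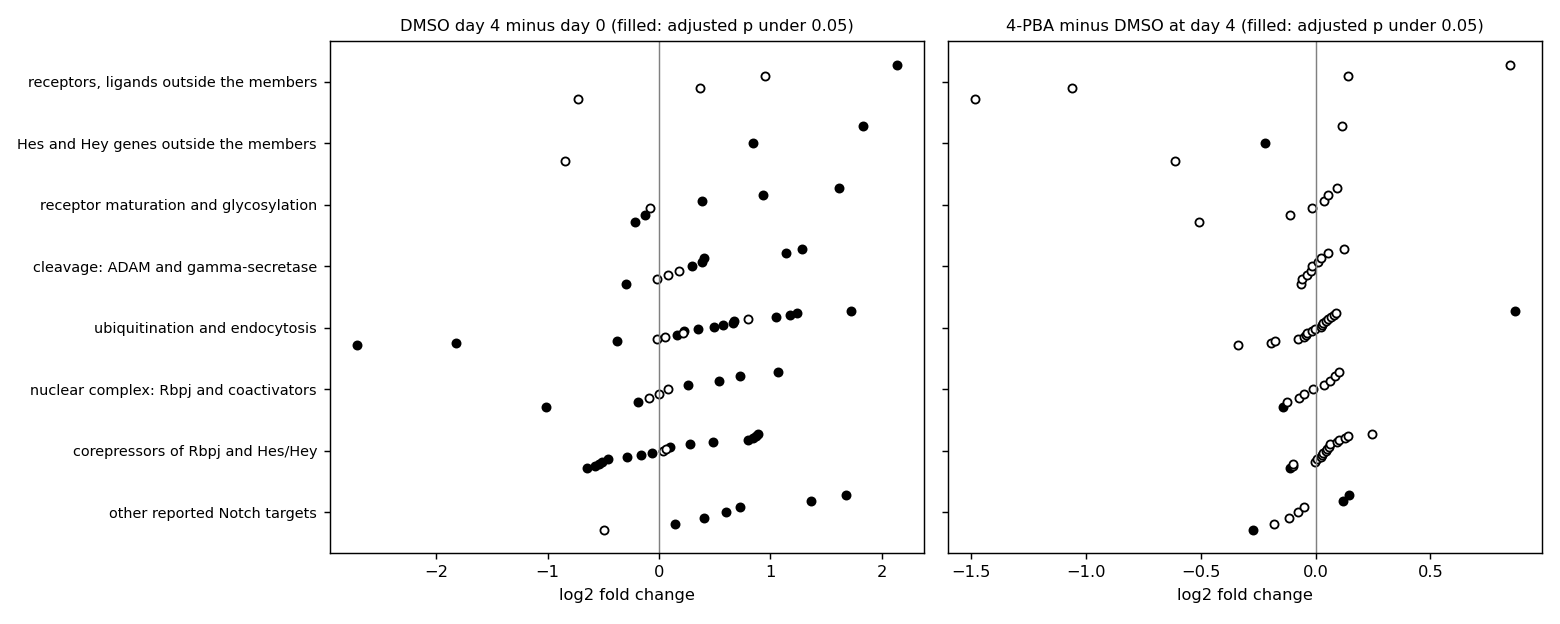
Log2 fold change (horizontal axes) of the 73 tested genes of the pathway outside the 10 members, 1 point per gene, by list; left, DMSO at day 4 minus day 0; right, 4-PBA minus DMSO; filled points have an adjusted p under 0.05. On the left 55 points are filled, 39 of them to the right of 0, and on the right 7 are filled.

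For each member the most similar genes were found by the root mean square difference in centred log2 CPM over the 6 libraries, among 10671 genes with a mean of at least 5 CPM. The closest were Clk2 for Notch1, with a difference of 0.0099, Iqsec1 for Notch2 with 0.011, Ttc28 for Notch3 with 0.021, Lrch2 for Jag1 with 0.018 and Snhg12 for Jag2 with 0.030. For Hes1 the closest gene was Chst12 with 0.022, for Hes6 Rapgefl1 with 0.026 and for Hey1 Zfp30 with 0.065. Dll1 and Heyl had no neighbour as near: Gm15867 was closest to Dll1 with 0.12, and Cd200 was closest to Heyl with 0.11. With 3 groups of 2 libraries, these likenesses mainly describe the same steps between groups.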

How the data were processed

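Raw counts per gene symbol of 6 C2C12 libraries, deposited by the authors in 1 table, were analysed. The counts are not normalised. Per the submitters' processing notes the genome build was GRCm39; the aligner, counter, annotation and use of strand are not given in the sources used here. Per the labels' protocols, libraries were made from DNase-treated total RNA with a directional kit.

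Genes were filtered with filterByExpr and scaled with TMM in edgeR 4.0.16 (R 4.3.3). All 6 libraries entered 1 model with group means (estimateDisp, robust glmQLFit), and p-values were adjusted over 17433 genes with the Benjamini-Hochberg method at a threshold of 0.05. The common biological coefficient of variation was 3.74%, with 3 residual and a median of 30.4 prior degrees of freedom. SE is the log2 fold change divided by the square root of F, and 95% intervals use the t distribution with residual plus prior degrees of freedom. The 2 libraries of a group varied beyond sampling noise (chi-square per degree of freedom 3.83 at day 0, 7.00 with DMSO and 5.52 with 4-PBA). RPKM used merged exon lengths of GENCODE M21 (GRCm38), which is not the build of the counts.

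The members and lists were chosen with earlier results of these data known. All 10 members are named; of each other pathway list, up to 2 called genes per comparison with the largest change among those whose groups did not overlap and whose higher mean reached 1 CPM; and, for each member, its nearest gene of 2 found. Alternatives tried were library size only, DESeq2 size factors, other filters, DESeq2 1.42.0, limma-voom (limma 3.58.1), fits of 4 libraries, a replicate block, stricter thresholds and leaving out each library. The procedure was tested on simulated data. Figures used Python 3.11.15 and matplotlib 3.10.9.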

Additional observations from a re-analysis of the deposited data

How the results depend on the processing

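Against day 0, 9 of 10 members were called with either agent under every alternative but a minimum change of 2-fold, which left 4 with DMSO and 4 with 4-PBA; of the other pathway genes it left 15 and 12. Between 4-PBA and DMSO the count of 2 members depended on the setting. With library size only, DESeq2 size factors, a stricter filter, limma-voom, a replicate block or the fit of 4 libraries it was 3. The count was 4 with no filter on low counts, 1 with the DESeq2 Wald test, 0 at an adjusted p under 0.01 and 0 with a minimum of 2-fold. It was 0 without either 4-PBA library, 1 without the first DMSO library and 4 without the second. Fits without 1 library also hold fewer libraries, and the cause of these differences was not tested. For the 7 other pathway genes called between 4-PBA and DMSO the count was 4 at an adjusted p under 0.01, 0 with a minimum of 2-fold, and 3 to 11 when 1 library was left out (11 without the second DMSO library, 4 and 3 without the first and second 4-PBA library).

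Reversals of sign occurred only among values that were never called. Leaving out 1 library moved Notch1 from -0.062 to 0.0018 with DMSO and from -0.019 to 0.010 with 4-PBA against day 0, and from -0.0089 to 0.055 between 4-PBA and DMSO; the stricter filter gave 0.0080 for Notch1 with 4-PBA against day 0. Without the first day 0 library that value was 0.0028. Between 4-PBA and DMSO, leaving out 1 library moved Notch3 from -0.013 to 0.077 and Jag1 from -0.045 to 0.088. Other scalings moved the median of all genes by at most 0.028 in size.

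With a replicate block, 9, 9 and 3 members were called in the 3 comparisons, Jag2 being the addition between 4-PBA and DMSO (edgeR adjusted p = 0.0375). Deviations of same-numbered libraries were not correlated (-0.028, -0.0031 and -0.012), so no shared effect of the replicate number was seen. Such correlations cannot tell whether same-numbered libraries were prepared together, which the labels do not say.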
